A study of Homo sapiens with 14 samples.

Results

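The difference between the responses of 2 liver tumour lines to an applied weight was examined gene by gene: the change that Hep3B cells showed under the weight minus the change that HepG2 cells showed. It was fitted on 8 of the 14 libraries of the series, and every gene with at least 1 CPM (counts scaled to library size) in at least 2 of these 8 libraries was included, which gave 15114 of the 56479 genes in the table. The series sequenced RNA from both lines under osmotic compression with polyethylene glycol (PEG) and under mechanical compression, to follow how liver cancer cells respond to being compressed. All 8 libraries used here came from cells grown on the permeable membrane of transwell inserts. They form 4 groups of 2: Hep3B under a weight, uncompressed Hep3B, HepG2 under a weight and uncompressed HepG2. Both lines are labelled wild type, Hep3B as hepatocellular carcinoma and HepG2 as hepatoblastoma, and the labels name no edited gene and no added agent in these 4 groups. Each line is a single established line, so a difference between them is a difference between these lines and not between tumour types. Neither the load nor how long it was applied is stated in the labels. The labels name the libraries of a group biological replicates without describing separate cultures, so that p-values measure the spread between these samples, which may be technical.

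Cells pressed from outside lose volume, flatten and meet neighbours and substrate over a larger area, and the known routes that translate such a change into transcription include YAP and TEAD, the actin cytoskeleton, TGF-beta signalling and, where oxygen reaches the cells less well, the HIF factors. The HIF factors switch on glycolytic enzymes, glucose transporters and secreted factors such as erythropoietin, and Hep3B and HepG2 are classical lines for the study of erythropoietin control. Hep3B is known to lack functional p53 and RB, whereas HepG2 has both.

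The 8 libraries held 22.1 M to 27 M counts, and mitochondrially encoded genes took 0.808% to 3.03% of them, with the larger share in replicate 1 of every group. The line labels fitted the data. RB1 stood at 4.11 and 4.79 CPM in Hep3B under the weight, against 2.71 and 2.60 CPM in uncompressed Hep3B. HepG2 had 107 and 105 CPM under the weight, against 129.6 and 122 CPM when uncompressed. H19 and VIM were at or below 0.0953 CPM in all 4 HepG2 libraries, and BPIFB2 was at 0 in all 4 Hep3B libraries, with 683 and 788 CPM in HepG2 under the weight and 411 and 415 CPM in uncompressed HepG2. No level of H19, VIM or BPIFB2 was set beforehand for either line, so they separate the groups without checking the labels. The liver proteins ALB and AFP were high in both lines. AFP, the fetal counterpart of albumin, had 408 and 485 CPM in Hep3B under the weight, against 633 and 629 CPM in uncompressed Hep3B. HepG2 had 18182 and 18042 CPM under the weight, against 22447 and 22251 CPM when uncompressed. The difference of the 2 effects, -0.20 ± 0.09 (SE; edgeR adjusted p = 0.14), did not pass the threshold. Without the second Hep3B library under the weight that difference was -0.33 and did pass.

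The difference of the 2 weight effects passed the threshold for 3916 of the 15114 genes, or 25.9% (edgeR quasi-likelihood test, Benjamini-Hochberg adjusted p under 0.05). The weight effect was higher in Hep3B for 1949 genes (12.9%) and lower in Hep3B for 1967 genes (13%). A difference of at least 1 on the log2 scale was seen for 307 of the higher and 510 of the lower genes. In every one of the 3916 genes the 4 library differences of Hep3B lay beyond all 4 of HepG2, a separation that 51.3% of all tested genes showed. The median difference over all tested genes was close to 0, at -0.00878 on the log2 scale.

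Most of these genes moved in HepG2. Of the 3916, 2524 passed the threshold for the HepG2 effect and not for the Hep3B effect, nearly evenly split between 1261 that rose and 1263 that fell in HepG2. Another 418 passed for the Hep3B effect and not for the HepG2 effect (232 rose and 186 fell in Hep3B), 800 passed in both lines, and 174 in neither. Among the 800 were genes that turned in opposite directions, 170 that rose in Hep3B and fell in HepG2 and 222 that fell in Hep3B and rose in HepG2, together 2.59% of the genes tested. Among those that moved the same way, the larger rise was in Hep3B for 78 genes and in HepG2 for 182, and the larger fall was in Hep3B for 13 and in HepG2 for 135. The median size of the effect without its sign was 0.150 in Hep3B and 0.268 in HepG2 on the log2 scale. Across genes the 2 effects had a Pearson r of 0.232 and a Spearman coefficient of 0.263, and across the 12301 genes with at least 1 CPM in 2 libraries of each line 0.318 and 0.293, as descriptions over genes, which are not independent. These are bulk RNA levels relative to each library's total, and fewer cells of one state cannot be told apart from less RNA per cell.

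**Figure D1:**
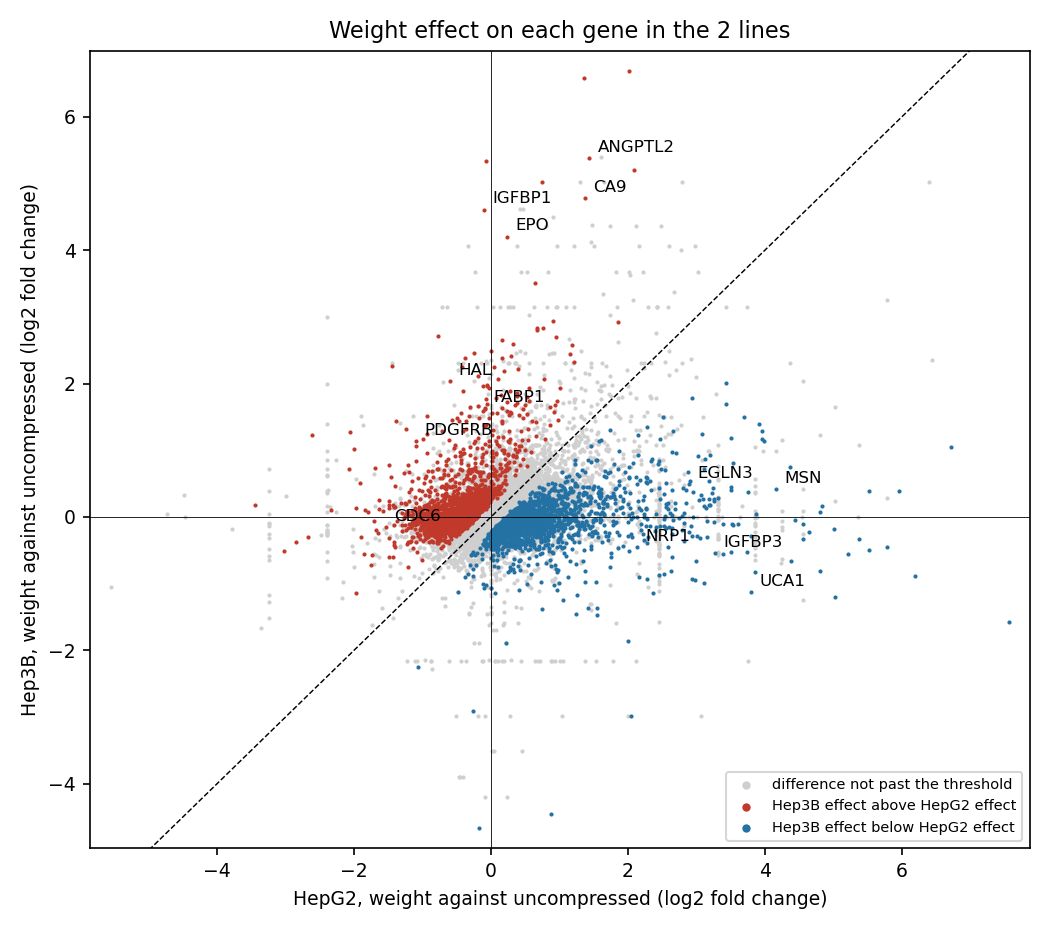
Each point is 1 of the 15114 genes, with its weight effect in Hep3B on the vertical axis and in HepG2 on the horizontal axis, both as log2 fold change of weight against uncompressed; the dashed line marks equal effects. Genes whose difference passed the threshold spread upward (1949, red) for IGFBP1, EPO and CA9 and to the right (1967, blue) for IGFBP3, UCA1 and MSN; points in straight rows are genes with no or few counts in a group, whose fold changes depend on the prior count.

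Differences below are the Hep3B effect minus the HepG2 effect on the log2 scale. The standard error (SE) of an effect or difference is its absolute value divided by the square root of edgeR's F statistic. It is approximate for genes with few counts. For BMP2 it was 0.644 for the difference and 0.651 for the HepG2 effect alone, although a difference should be the less precise. Counts of list members below stand against these shares of all genes tested. For the difference, 12.9% were higher and 13% lower. In Hep3B alone 9.00% rose and 8.69% fell, and in HepG2 22.8% rose and 21.5% fell. The lines often started from different levels. For 147 of the 3916 genes (76 higher and 71 lower) the change counted in CPM had the other sign, so that the line with the larger ratio had the smaller gain or loss in CPM. Separately, 125 of the called genes were under 1 CPM in the HepG2 libraries and 94 in the Hep3B libraries. A fit that drew the spread from all 14 libraries made 407 calls (2.69% of the genes tested), 405 of them among the 3916. Its common biological coefficient of variation was 0.164 against 0.0597 in the 8 libraries, with values of 0.315 and 0.281 between replicates of the HepG2 dish groups, against 0.043 to 0.070 between replicates of the transwell groups used here.

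Among the widest gaps on the Hep3B side were secreted and hypoxia-related genes that stood much lower in uncompressed Hep3B than in HepG2. IGFBP1, a liver-secreted carrier of insulin-like growth factors, had 12.1 and 19.6 CPM in Hep3B under the weight, against 0.625 and 0.659 CPM in uncompressed Hep3B. HepG2 had 3707 and 3954 CPM under the weight, against 4125 and 4094 CPM when uncompressed. The 2 Hep3B groups did not overlap, while the HepG2 libraries under the weight lay just below the uncompressed ones. The effect was 4.61 ± 0.37 in Hep3B and -0.10 ± 0.21 in HepG2 on the log2 scale, a difference of 4.71 ± 0.44 (SE; edgeR adjusted p = 0.0026). EPO, the hormone that drives red cell formation, had 5.30 and 7.69 CPM in Hep3B under the weight, against 0.347 and 0.347 CPM in uncompressed Hep3B. HepG2 had 18.4 and 18.8 CPM under the weight, against 17.1 and 14.5 CPM when uncompressed. It too separated the Hep3B groups fully, and its difference was 3.96 ± 0.31 (SE; edgeR adjusted p = 6.6e-08). LCN15 and COX4I2 had larger fitted differences but no count in either uncompressed Hep3B library, so that their size depends on the prior count, and COX4I2 did not pass without either uncompressed Hep3B library or the first uncompressed HepG2 library.

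CA9, a membrane carbonic anhydrase and a standard hypoxia marker, rose in both lines. It had 25 and 39.5 CPM in Hep3B under the weight, against 1.25 and 1.07 CPM in uncompressed Hep3B. HepG2 had 89.3 and 75.9 CPM under the weight, against 32.8 and 31.3 CPM when uncompressed. The ratio was larger in Hep3B, with a difference of 3.42 ± 0.49 (SE; edgeR adjusted p = 0.0088), and the gain in CPM was larger in HepG2, 31.1 CPM in Hep3B against 50.6 CPM in HepG2. Without the first or the second uncompressed Hep3B library the adjusted p of CA9 was 0.054 or 0.059. ANGPTL2, a secreted angiopoietin-like protein, followed the same form, with 7.49 and 11.8 CPM in Hep3B under the weight, against 0.347 and 0.104 CPM in uncompressed Hep3B. HepG2 had 100.7 and 91.7 CPM under the weight, against 36.4 and 34.7 CPM when uncompressed. The difference was 3.95 ± 0.57 (SE; edgeR adjusted p = 0.0034). Over the 16 alternatives tried it ranged from 3.34 to 5.03, and it did not pass in 1 of them. IGFBP1, EPO and ANGPTL2 were under 1 CPM in uncompressed Hep3B, so that their Hep3B ratios rest on few counts. In IGFBP1, EPO, CA9 and ANGPTL2 the second Hep3B library under the weight was higher than the first.

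The CA9 promoter is shown because a HIF site close to the start of this gene is the textbook example of a hypoxia response element. The window runs from 250 bases before to 50 after the RefSeq start (GRCh38.p14, chr9:35673678-35673977, plus strand), and capitals mark the match to the core letters ACGTG, here read on the opposite strand as CACGT.
CA9: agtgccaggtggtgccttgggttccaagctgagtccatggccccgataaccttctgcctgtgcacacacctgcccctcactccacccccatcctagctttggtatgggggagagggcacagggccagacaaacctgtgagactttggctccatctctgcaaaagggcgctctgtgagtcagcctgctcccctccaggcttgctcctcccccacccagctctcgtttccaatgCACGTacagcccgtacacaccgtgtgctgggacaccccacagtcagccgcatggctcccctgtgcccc
These core letters, searched on both strands, occurred in the promoters of 19 of the 42 glycolysis and hypoxia genes with a RefSeq window (45.2%), and in 21.4% of all 35114 windows. A match describes the letters and is not a measured binding site.

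**Figure D2:**
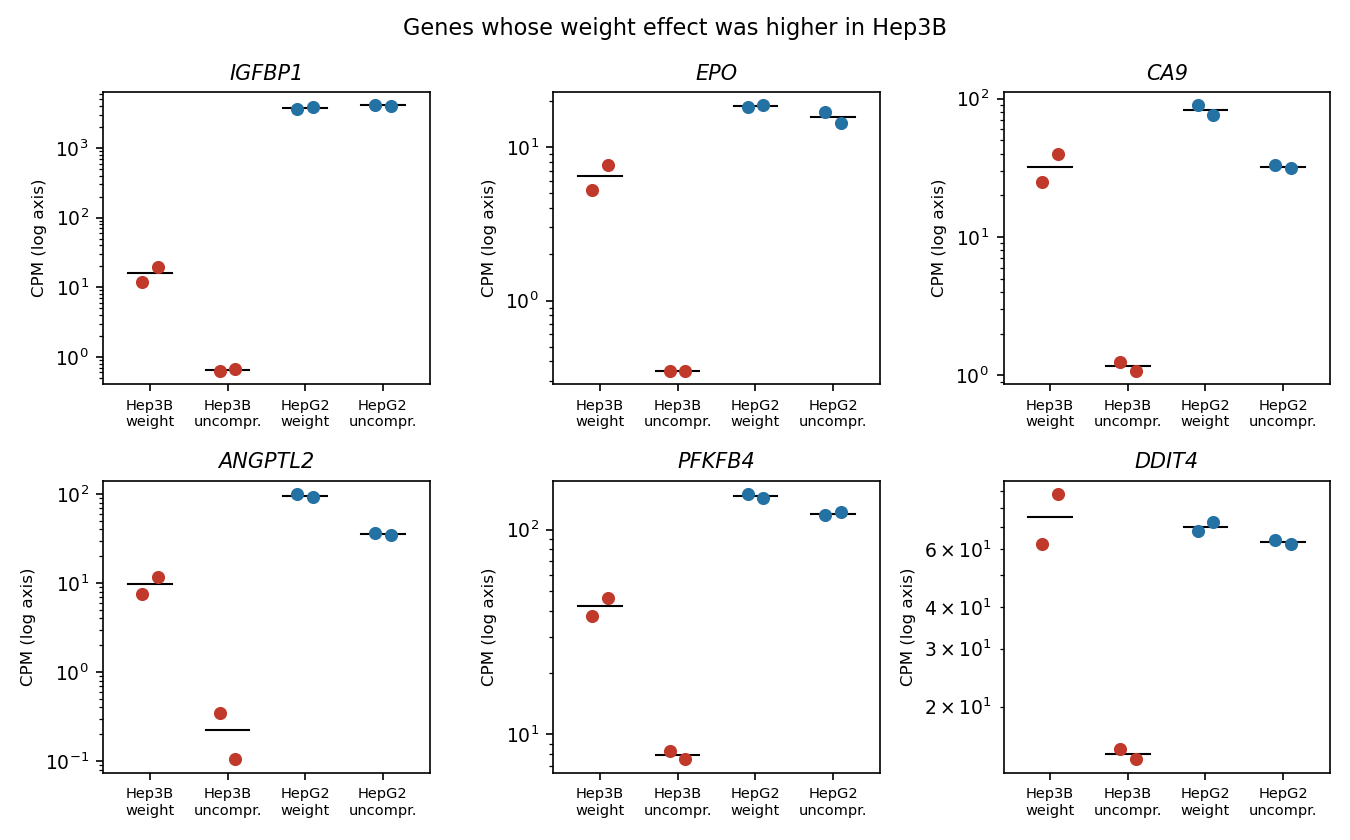
Each panel gives 1 gene in CPM on a log axis, with 1 point per library, the bar at the mean of the 2 libraries, Hep3B in red and HepG2 in blue. All 6 genes lay far higher in Hep3B under the weight than in uncompressed Hep3B, while the HepG2 groups of IGFBP1, EPO, PFKFB4 and DDIT4 stood close together and those of CA9 and ANGPTL2 were higher under the weight.

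Glycolytic genes shared this direction. Of 22 genes of glycolysis and glucose uptake, 16 had a higher weight effect in Hep3B and 1 a lower one, against 12.9% and 13% over all genes. The median effect was 1.05 in Hep3B and 0.17 in HepG2, and the median difference 0.61, against -0.00878 over all genes. In Hep3B alone 18 of the 22 rose, where 9.00% of all genes did, and in HepG2 10 rose, where 22.8% did. PFKFB4, which makes the activator of phosphofructokinase, had 38 and 46.3 CPM in Hep3B under the weight, against 8.27 and 7.52 CPM in uncompressed Hep3B. HepG2 had 149.8 and 143 CPM under the weight, against 118 and 122 CPM when uncompressed. The HepG2 groups did not overlap either but stood close, and the difference was 2.13 ± 0.12 (SE; edgeR adjusted p = 3.8e-09). SLC2A1, the glucose transporter GLUT1, had 31.5 and 35.4 CPM in Hep3B under the weight, against 12.4 and 13.3 CPM in uncompressed Hep3B. HepG2 had 701 and 663 CPM under the weight, against 734 and 729.7 CPM when uncompressed, so that its rise was seen in Hep3B and its difference was 1.48 ± 0.09 (SE; edgeR adjusted p = 1.6e-09). ALDOA, an aldolase, had 1001 and 1143 CPM in Hep3B under the weight, against 494 and 509 CPM in uncompressed Hep3B. HepG2 had 1845 and 1862 CPM under the weight, against 1728 and 1775 CPM when uncompressed. The difference was 1.01 ± 0.08 (SE; edgeR adjusted p = 3.7e-08). ALDOC had a larger difference than PFKFB4 (2.204). PDK1, which blocks pyruvate entry into mitochondria, and LDHA, which makes lactate, lay between PFKFB4 and SLC2A1, at 1.97 and 1.71. PFKFB3, the isoform best known for its induction by hypoxia, went the other way at -0.61 ± 0.13. It rose in both lines, by 0.65 in Hep3B and 1.26 in HepG2.

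The 24 other hypoxia genes rose widely in both lines, 21 of them in Hep3B and 18 in HepG2, where 9.00% and 22.8% of all genes did. They divided over the difference. The difference was higher in Hep3B for 13 and lower for 3, against 12.9% and 13% over all genes, with a median of 0.38. DDIT4, an inhibitor of the mTORC1 kinase complex, had 62.3 and 88.4 CPM in Hep3B under the weight, against 14.9 and 13.8 CPM in uncompressed Hep3B. HepG2 had 68.2 and 72.4 CPM under the weight, against 63.9 and 62.2 CPM when uncompressed. The difference was 2.23 ± 0.25 (SE; edgeR adjusted p = 0.0019). The mitophagy receptors BNIP3 and BNIP3L had differences of 1.27 and 1.27, and P4HA1, a collagen prolyl hydroxylase, 1.27. VEGFA, the main vessel growth factor, rose by 1.57 ± 0.19 in Hep3B and 1.45 ± 0.19 in HepG2, a difference of 0.12 ± 0.26 that did not pass the threshold, and NDRG1 and ANGPTL4 differed by -0.01 and 0.01. EGLN3, the HIF prolyl hydroxylase that is itself a HIF target, had the lowest difference of the list, with 10.6 and 12.1 CPM in Hep3B under the weight, against 8.20 and 7.94 CPM in uncompressed Hep3B. HepG2 had 121 and 115 CPM under the weight, against 17.1 and 14.7 CPM when uncompressed. The difference was -2.40 ± 0.13 (SE; edgeR adjusted p = 4.7e-10). In the 14-library fit 7 members of the glycolysis list and 8 of this list passed.

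Among the 170 genes that rose in Hep3B and fell in HepG2 was HAL, histidine ammonia-lyase, the first enzyme of histidine breakdown. It had 122 and 142 CPM in Hep3B under the weight, against 32 and 32.2 CPM in uncompressed Hep3B. HepG2 had 55.3 and 65.5 CPM under the weight, against 92.9 and 89.9 CPM when uncompressed. The difference was 2.63 ± 0.12 (SE; edgeR adjusted p = 6.7e-09). PDGFRB, a receptor for platelet-derived growth factor, had 11.6 and 12.1 CPM in Hep3B under the weight, against 5.28 and 5.51 CPM in uncompressed Hep3B. HepG2 had 10.9 and 13.7 CPM under the weight, against 26.6 and 25.5 CPM when uncompressed, so that the lines, far apart without the weight, met under it, and its difference was 2.22 ± 0.16 (SE; edgeR adjusted p = 1.3e-08). EGR1, an immediate early transcription factor of the ERK pathway, had 28.9 and 30.4 CPM in Hep3B under the weight, against 10.1 and 10.02 CPM in uncompressed Hep3B. HepG2 had 9.52 and 9.72 CPM under the weight, against 12.3 and 13.6 CPM when uncompressed. The difference was 1.99 ± 0.13 (SE; edgeR adjusted p = 7.1e-09). IER3, another immediate early gene, had 61.5 and 63.5 CPM in Hep3B under the weight, against 19.7 and 20.04 CPM in uncompressed Hep3B. HepG2 had 139 and 118 CPM under the weight, against 166 and 151 CPM when uncompressed. The difference was 1.96 ± 0.11 (SE; edgeR adjusted p = 2.9e-09). DUSP6, the phosphatase that switches off ERK and is transcribed in response to it, had 25.2 and 29.4 CPM in Hep3B under the weight, against 18.4 and 18 CPM in uncompressed Hep3B. HepG2 had 137 and 128 CPM under the weight, against 229 and 217 CPM when uncompressed. The difference was 1.33 ± 0.10 (SE; edgeR adjusted p = 1.8e-08). The Sprouty inhibitors SPRY4 and SPRY1 and the ERK-driven factor ETV5 lay on the same side, at 1.76, 1.04 and 0.99. The wider list of EGFR ligands and ERK feedback genes did not have one direction, with 8 of 25 higher and 8 lower. On the lower side were the ligand AREG (-2.37), EGFR itself (-1.14) and the phosphatase DUSP4 (-1.50), each of which rose in HepG2. Of 23 immediate early genes 5 were higher and 8 lower. FOS and JUNB had the larger ratio in Hep3B, at 1.29 and 0.65, and JUN, FOSL2 and KLF6 the smaller one, at -0.77, -0.89 and -0.79. EGR1 did not pass in the 14-library fit.

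Cell division genes fell together in HepG2, and nearly all had a higher weight effect in Hep3B. Of 32 genes of the mitotic machinery, 30 had a higher weight effect in Hep3B and 0 a lower one. In Hep3B 1 fell (CDC20, an activator of the anaphase-promoting complex, at -0.22 ± 0.06) and none rose, and the median was 0.04. In HepG2 31 of the 32 fell, where 21.5% of all genes did, with a median of -0.92. The summed level of the list was 5746 and 5605 CPM in Hep3B under the weight, against 5308 and 5631 CPM in uncompressed Hep3B, and 1904 and 1933 CPM in HepG2 under the weight, against 3551 and 3668 CPM in uncompressed HepG2. TOP2A, which untangles DNA before division, had 1099 and 1054 CPM in Hep3B under the weight, against 971 and 993 CPM in uncompressed Hep3B. HepG2 had 356 and 380.3 CPM under the weight, against 744 and 777 CPM when uncompressed. The difference was 1.18 ± 0.07 (SE; edgeR adjusted p = 2.3e-09). BIRC5, the survivin subunit of the chromosomal passenger complex, had 85.3 and 79.2 CPM in Hep3B under the weight, against 89.4 and 88.9 CPM in uncompressed Hep3B. HepG2 had 43.9 and 40.5 CPM under the weight, against 105 and 103 CPM when uncompressed. The difference was 1.19 ± 0.08 (SE; edgeR adjusted p = 1.2e-08). CCNB2, a mitotic cyclin, had 109.5 and 104 CPM in Hep3B under the weight, against 97 and 100.5 CPM in uncompressed Hep3B. HepG2 had 31.8 and 31.9 CPM under the weight, against 65.6 and 67 CPM when uncompressed. The difference was 1.17 ± 0.08 (SE; edgeR adjusted p = 9.9e-09). Of the remainder, MKI67 had a difference of 1.11 ± 0.38 and BUB3 of 0.22 ± 0.08, and neither passed.

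DNA replication genes showed the same separation with a small fall in Hep3B as well. Of the 38, 11 fell in Hep3B, where 8.69% of all genes fell, and all 38 fell in HepG2. The medians were -0.14 in Hep3B and -0.76 in HepG2, and the difference was higher in Hep3B for 34 and lower for 0. CDC6, which loads the MCM helicase onto origins, had the largest difference of the list. It had 107 and 101.4 CPM in Hep3B under the weight, against 116 and 116 CPM in uncompressed Hep3B. HepG2 had 25.6 and 27.3 CPM under the weight, against 78.1 and 74.7 CPM when uncompressed. The difference was 1.38 ± 0.08 (SE; edgeR adjusted p = 1.9e-09). ORC1, a subunit of the origin recognition complex, and MCM10, which helps to start the fork, differed by 1.05 and 1.05. POLD1 and RFC2, of the replicative polymerase and the clamp loader, fell in both lines, and their differences of 0.00 ± 0.12 and 0.03 ± 0.10 did not pass.

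Of 19 E2F, RB-family and MuvB factors, 13 were higher and 0 lower. FOXM1, the activator of mitotic genes, had 139.8 and 131 CPM in Hep3B under the weight, against 144 and 158 CPM in uncompressed Hep3B. HepG2 had 35.3 and 36.1 CPM under the weight, against 67.5 and 67.3 CPM when uncompressed. The difference was 0.76 ± 0.09 (SE; edgeR adjusted p = 2.9e-06). E2F1 and E2F2 differed by 0.63 and 0.84, while the repressive E2F4 and E2F5 (0.12 and -0.08) did not pass. RB1, whose values are given above, rose by 0.74 ± 0.13 in Hep3B and fell by 0.24 ± 0.06 in HepG2. Of the brakes on the cell cycle, CDKN2B, the INK4 inhibitor p15, had 8.99 and 8.25 CPM in Hep3B under the weight, against 6.95 and 6.52 CPM in uncompressed Hep3B. HepG2 had 8.46 and 8.86 CPM under the weight, against 2.99 and 2.87 CPM when uncompressed. It rose in HepG2 and its difference was -1.20 ± 0.20 (SE; edgeR adjusted p = 1.8e-04). CDKN1A, which encodes p21, rose in both lines, by 1.63 ± 0.22 in Hep3B and 1.23 ± 0.08 in HepG2, and its difference of 0.40 ± 0.24 did not pass. Cyclin D1, CCND1, had 64.9 and 56.4 CPM in Hep3B under the weight, against 69.9 and 74.2 CPM in uncompressed Hep3B. HepG2 had 464 and 450.1 CPM under the weight, against 244 and 247 CPM when uncompressed. The difference was -1.14 ± 0.09 (SE; edgeR adjusted p = 2.2e-08). The 14-library fit called 6, 4 and 1 members of the mitosis, replication and E2F lists, with BIRC5, CDC6 and FOXM1 but not TOP2A, CCNB2 or RB1 among them. It called 2 of 11 CDK inhibitors and D cyclins, CDKN2B and CCND1.

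The promoters of CCNB2 and CDC6 are shown because these genes stand for the 2 classes of cell cycle promoter, the late one with a cell cycle homology region and the early one with an E2F site. Capitals mark the letters TTTGAA in CCNB2 (GRCh38.p14, chr15:59104896-59105195, plus strand) and TTTGGCGC in CDC6 (GRCh38.p14, chr17:40287629-40287928, plus strand), both from RefSeq.
CCNB2: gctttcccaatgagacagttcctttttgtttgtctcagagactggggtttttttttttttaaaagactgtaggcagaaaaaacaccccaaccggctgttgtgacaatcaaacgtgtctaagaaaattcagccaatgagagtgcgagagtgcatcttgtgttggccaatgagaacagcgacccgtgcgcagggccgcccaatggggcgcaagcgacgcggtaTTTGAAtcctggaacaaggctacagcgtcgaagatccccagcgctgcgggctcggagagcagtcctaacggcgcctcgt
CDC6: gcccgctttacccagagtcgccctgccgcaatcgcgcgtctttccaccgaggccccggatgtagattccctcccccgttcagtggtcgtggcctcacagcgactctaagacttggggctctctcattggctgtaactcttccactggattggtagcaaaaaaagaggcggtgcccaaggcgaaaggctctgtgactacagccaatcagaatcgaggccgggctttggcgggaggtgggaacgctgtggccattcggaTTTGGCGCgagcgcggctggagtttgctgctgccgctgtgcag
Searched on both strands, TTTGAA occurred in 18 of the 26 mitosis promoters with a window (69.2%), against 15.2% of all windows, and TTTGGCGC in 6 of the 32 replication promoters (18.8%), against 0.652% of all. No overlap with other motifs was examined.

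**Figure D3:**
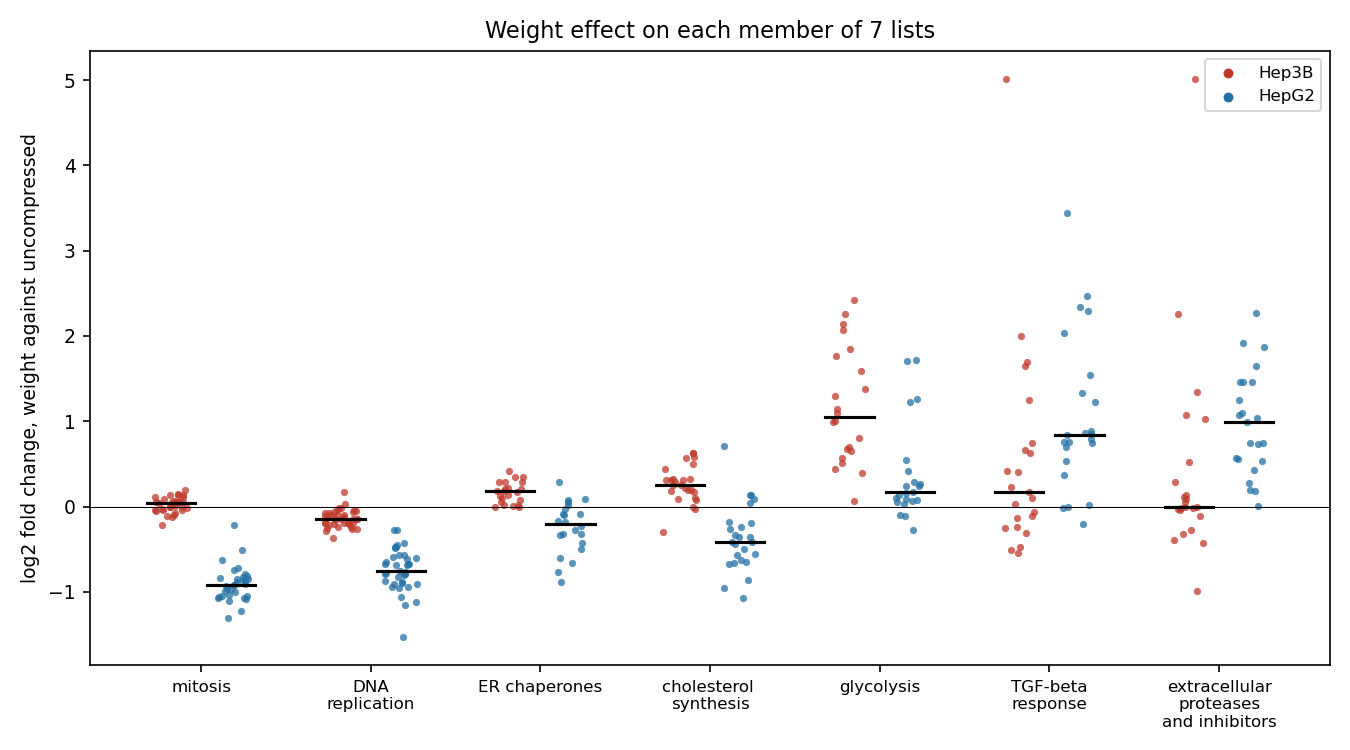
Each point is a tested gene of 1 of 7 lists, with its weight effect as log2 fold change of weight against uncompressed, Hep3B in red on the left and HepG2 in blue on the right of each pair, and the bar at the list's median. Mitosis genes lie around 0.04 in Hep3B and around -0.92 in HepG2, the medians of cholesterol synthesis and ER chaperones lie on opposite sides of 0 in the 2 lines, and the TGF-beta and protease medians lie higher in HepG2.

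Of 25 genes of the cholesterol pathway, 14 rose in Hep3B and fell in HepG2. In all, 17 rose in Hep3B and 19 fell in HepG2, with medians of 0.25 and -0.41, and the difference was higher in Hep3B for 20 and lower for 0. FDPS, which makes farnesyl diphosphate, had 425 and 420.3 CPM in Hep3B under the weight, against 278 and 269 CPM in uncompressed Hep3B. HepG2 had 166 and 173 CPM under the weight, against 259 and 264 CPM when uncompressed. Both pairs of groups were apart, in opposite directions, and the difference was 1.25 ± 0.07 (SE; edgeR adjusted p = 6.0e-10). ACAT2, the cytosolic acetyl-CoA acetyltransferase, had 409 and 391 CPM in Hep3B under the weight, against 365 and 344 CPM in uncompressed Hep3B. HepG2 had 229 and 250.4 CPM under the weight, against 465 and 459 CPM when uncompressed. The difference was 1.12 ± 0.08 (SE; edgeR adjusted p = 1.1e-08). INSIG1, the sterol-sensing retention protein, rose by 0.57 ± 0.07 in Hep3B, and neither its HepG2 effect of 0.72 ± 0.60 nor its difference of -0.15 ± 0.55 passed.

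Fatty acid synthesis and lipid droplet genes had 12 of 24 members higher in Hep3B and 1 lower. FABP1, the liver fatty acid binding protein, had 265 and 295 CPM in Hep3B under the weight, against 94.5 and 85.8 CPM in uncompressed Hep3B. HepG2 had 844 and 918 CPM under the weight, against 931 and 936 CPM when uncompressed. The HepG2 groups lay close together, and the difference was 1.72 ± 0.09 (SE; edgeR adjusted p = 5.9e-10). FASN, the fatty acid synthase, differed by 0.77, the elongase ELOVL6 by 1.12 and the desaturases FADS2 and SCD by 1.18 and 0.81. The exception was AGPAT2, an acyltransferase of phospholipid and triglyceride synthesis, which rose in both lines. It had 38.4 and 43.4 CPM in Hep3B under the weight, against 27.9 and 26.5 CPM in uncompressed Hep3B. HepG2 had 30.9 and 31.2 CPM under the weight, against 6.99 and 5.87 CPM when uncompressed. The difference was -1.69 ± 0.13 (SE; edgeR adjusted p = 3.0e-08). In the 14-library fit 6 cholesterol and 5 fatty acid genes passed, FABP1, FDPS and ACAT2 among them.

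The folding machinery of the endoplasmic reticulum had smaller differences in the same direction. Of 22 chaperones and unfolded protein response genes, 19 were higher in Hep3B and 0 lower, with 12 rises in Hep3B and 12 falls in HepG2. The median difference was 0.42. HYOU1, a large chaperone of the Hsp70 class, had 247 and 256 CPM in Hep3B under the weight, against 220.5 and 222 CPM in uncompressed Hep3B. HepG2 had 226 and 226 CPM under the weight, against 356 and 358 CPM when uncompressed. The difference was 0.84 ± 0.07 (SE; edgeR adjusted p = 5.0e-08). MANF, a secreted protein of the stress response, had 48 and 50.9 CPM in Hep3B under the weight, against 40.1 and 40.6 CPM in uncompressed Hep3B. HepG2 had 56.1 and 58.8 CPM under the weight, against 83.1 and 79.5 CPM when uncompressed. The difference was 0.79 ± 0.09 (SE; edgeR adjusted p = 2.0e-06). HSPA5, the chaperone BiP and usual marker of the response, had 962 and 1026 CPM in Hep3B under the weight, against 861 and 842 CPM in uncompressed Hep3B. HepG2 had 1628 and 1642 CPM under the weight, against 1857 and 1859 CPM when uncompressed. The difference was 0.41 ± 0.07. Of the list, 2 members passed in the 14-library fit. The HSPA5 promoter is shown because it holds the ER stress response element (CCAAT, 9 bases of any kind, CCACG), marked in capitals (RefSeq, GRCh38.p14, chr9:125241294-125241593, minus strand).
HSPA5: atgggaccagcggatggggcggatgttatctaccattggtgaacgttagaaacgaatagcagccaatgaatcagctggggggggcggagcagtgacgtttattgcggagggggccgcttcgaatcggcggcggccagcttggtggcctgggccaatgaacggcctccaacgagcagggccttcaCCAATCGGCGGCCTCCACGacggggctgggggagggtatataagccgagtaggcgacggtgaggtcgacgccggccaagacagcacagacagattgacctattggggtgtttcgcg
This element occurred on either strand in the windows of 6 of 21 members (28.6%), CALR, CANX, CRELD2, HSP90B1, HSPA5 and XBP1, against 0.0769% of all windows.

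On the other side of the comparison, the genes described next rose in HepG2 under the weight, and most of them fell or did not pass in Hep3B. IGFBP3, the main serum carrier of insulin-like growth factors and a TGF-beta and YAP target, had 56.7 and 61 CPM in Hep3B under the weight, against 83.4 and 87.4 CPM in uncompressed Hep3B. HepG2 had 198 and 190.4 CPM under the weight, against 22.1 and 18.1 CPM when uncompressed. In Hep3B both libraries under the weight were lower than both uncompressed ones, in HepG2 both were far higher, and the difference was -3.81 ± 0.10 (SE; edgeR adjusted p = 2.2e-13). IGFBP3 (chr7:45912245-45921874, minus strand) lies 18.6 kb from IGFBP1 (chr7:45888357-45893668, plus strand) in GRCh38 as annotated by GENCODE 29, and the differences of these neighbours had opposite signs. UCA1, a long noncoding RNA described in bladder and liver cancer, had 7.91 and 7.73 CPM in Hep3B under the weight, against 16 and 18.2 CPM in uncompressed Hep3B. HepG2 had 10.5 and 10.9 CPM under the weight, against 0.836 and 0.698 CPM when uncompressed. Its lines crossed, and the difference was -4.92 ± 0.22 (SE; edgeR adjusted p = 4.2e-11). NRP1, a co-receptor for VEGF and semaphorins, had 182 and 172 CPM in Hep3B under the weight, against 239 and 246 CPM in uncompressed Hep3B. HepG2 had 79.2 and 79.5 CPM under the weight, against 18.3 and 18.1 CPM when uncompressed. The difference was -2.58 ± 0.08 (SE; edgeR adjusted p = 2.2e-13). KRT19, a keratin of bile duct and progenitor cells, had 117 and 116 CPM in Hep3B under the weight, against 173 and 165 CPM in uncompressed Hep3B. HepG2 had 180.1 and 173 CPM under the weight, against 51.8 and 52.8 CPM when uncompressed. The difference was -2.30 ± 0.07 (SE; edgeR adjusted p = 4.2e-13).

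Several of these genes were already high in uncompressed Hep3B. MSN, the moesin link between actin and membrane, had 75.3 and 72.2 CPM in Hep3B under the weight, against 56.1 and 54.6 CPM in uncompressed Hep3B. HepG2 had 4.97 and 5.05 CPM under the weight, against 0.264 and 0.287 CPM when uncompressed. It rose in both lines, by more CPM in Hep3B and by a larger ratio in HepG2, and the difference was -3.74 ± 0.24 (SE; edgeR adjusted p = 3.5e-09). The uncompressed HepG2 libraries held 6 and 7 counts of MSN, so that its HepG2 ratio rests on few counts. TAGLN2, an actin-binding transgelin, had 175 and 170.2 CPM in Hep3B under the weight, against 188 and 197 CPM in uncompressed Hep3B. HepG2 had 32.7 and 31.5 CPM under the weight, against 5.63 and 4.68 CPM when uncompressed. The difference was -2.80 ± 0.10 (SE; edgeR adjusted p = 3.1e-12). ANXA3, a calcium-dependent membrane-binding annexin, had 45.2 and 41.6 CPM in Hep3B under the weight, against 53.5 and 57.4 CPM in uncompressed Hep3B. HepG2 had 20.7 and 23.7 CPM under the weight, against 3.39 and 2.91 CPM when uncompressed. The difference was -3.17 ± 0.14 (SE; edgeR adjusted p = 4.7e-11). CD24, a surface glycoprotein used as a progenitor marker, had 1471 and 1542 CPM in Hep3B under the weight, against 1223 and 1300.1 CPM in uncompressed Hep3B. HepG2 had 138 and 142 CPM under the weight, against 29.1 and 30.7 CPM when uncompressed. Its ratio was larger in HepG2, with a difference of -1.97 ± 0.08 (SE; edgeR adjusted p = 5.4e-12), and its gain in CPM larger in Hep3B, 245 against 109.9 CPM. RND3 had 70.4 and 67.7 CPM in Hep3B under the weight, against 76.2 and 80.4 CPM in uncompressed Hep3B. In HepG2 it had 60 and 68 counts under the weight, against 1 and 3 counts when uncompressed. With so few counts its fitted difference has no firm size. The bone morphogenetic protein BMP2 likewise held 12 and 10 counts in HepG2 under the weight and 1 in each uncompressed HepG2 library. Genes typical of the other line stayed low but were higher under the weight. These sets were chosen in other libraries of the series, dish-grown HepG2 and Hep3B in PEG, at 20 CPM or more in one and under 0.1 CPM in the other. The 38 genes typical of HepG2 summed to 7.74 and 14.3 CPM in Hep3B under the weight and 2.30 and 2.67 CPM in uncompressed Hep3B. The 77 typical of Hep3B summed to 7.33 and 7.76 CPM in HepG2 under the weight and 3.55 and 3.98 CPM in uncompressed HepG2. The part of these genes in the results was not tested.

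**Figure D4:**
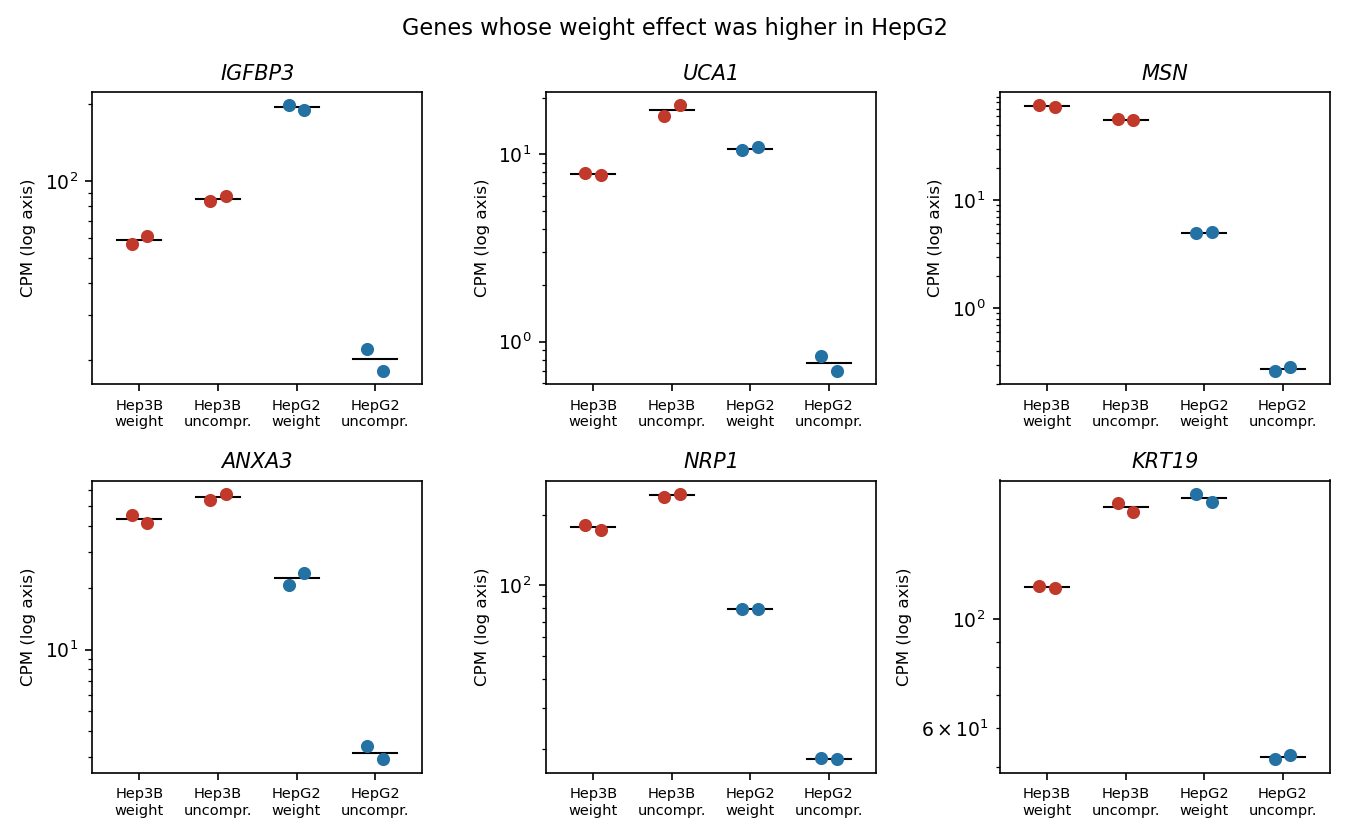
Each panel gives 1 gene in CPM on a log axis, with 1 point per library, the bar at the mean of the 2 libraries, Hep3B in red and HepG2 in blue. In all 6 genes both HepG2 libraries under the weight lay above both uncompressed HepG2 libraries, while the Hep3B libraries under the weight lay below the uncompressed ones for every gene but MSN.

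Signalling lists tied to matrix and mechanics leaned the same way. Of 23 TGF-beta genes, 11 rose in Hep3B and 18 in HepG2, and the difference was higher in Hep3B for 3 and lower for 14, with a median of -0.57. FSTL3, a secreted binder of activin, had 32.5 and 36.4 CPM in Hep3B under the weight, against 43.7 and 41.4 CPM in uncompressed Hep3B. HepG2 had 60.5 and 54.5 CPM under the weight, against 11.5 and 12 CPM when uncompressed. The difference was -2.59 ± 0.11 (SE; edgeR adjusted p = 4.0e-11). LTBP2, a matrix protein of the latent TGF-beta binding family, had 35 and 32.3 CPM in Hep3B under the weight, against 34.6 and 39.2 CPM in uncompressed Hep3B. HepG2 had 11.4 and 11.9 CPM under the weight, against 2.07 and 2.13 CPM when uncompressed. TGFBI, a secreted adhesion protein named for its induction by TGF-beta, had 361 and 326 CPM in Hep3B under the weight, against 410.0 and 410.4 CPM in uncompressed Hep3B. HepG2 had 887 and 857 CPM under the weight, against 369.8 and 374 CPM when uncompressed. The differences were -2.60 ± 0.16 (SE; edgeR adjusted p = 2.8e-09) for LTBP2 and -1.48 ± 0.08 (SE; edgeR adjusted p = 2.4e-10) for TGFBI. The inhibitory SMAD7 and SMAD6 differed by -0.88 and -1.31. On the other side of this list were BHLHE40 (0.79) and INHBE (0.61). Of 15 BMP and ID genes 1 was higher, GDF15 at 1.27, and 10 were lower, among them the BMP-driven repressors ID1, ID2 and ID3 at -0.66, -0.63 and -0.97.

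YAP and TEAD target genes had 1 of 24 members higher, F3, the tissue factor that starts clotting, at 0.69, and 13 lower. The median effect was -0.09 in Hep3B and 0.42 in HepG2. ANKRD1, often used to read out YAP activity, had 32.2 and 20.6 CPM in Hep3B under the weight, against 45 and 43.7 CPM in uncompressed Hep3B. HepG2 had 95.5 and 85.5 CPM under the weight, against 26.8 and 27.6 CPM when uncompressed. The difference was -2.48 ± 0.29. CCN1, another such target, differed by -1.07 ± 0.13. CCN2, the most used of these targets, fell in both lines, with effects of -0.54 ± 0.07 in Hep3B and -0.21 ± 0.07 in HepG2 and a difference of -0.33 ± 0.10. YAP1 itself differed by -0.01 ± 0.07, which did not pass. The letters GGAATG, the TEAD core, occurred in 7 of the 17 promoters with a window (41.2%), against 14.03% of all. Of the 8 members with a window that passed for the difference, 2 held them.

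Collagens, integrins and extracellular proteases that passed also lay almost all on the lower side, whereas the 15 matrix crosslinkers and mesenchymal genes divided, with 3 higher and 4 lower at a median of 0.10. Of 27 collagens, laminins and integrins 1 was higher and 15 lower. ITGA5, the fibronectin receptor subunit, had 76.9 and 81.7 CPM in Hep3B under the weight, against 84.1 and 80.6 CPM in uncompressed Hep3B. HepG2 had 2.85 and 2.10 CPM under the weight, against 0.264 and 0.287 CPM when uncompressed. The difference was -3.21 ± 0.30 (SE; edgeR adjusted p = 2.9e-07), with 6 and 7 counts in the uncompressed HepG2 libraries. COL18A1, the source of endostatin, had 244 and 233 CPM in Hep3B under the weight, against 248 and 243 CPM in uncompressed Hep3B. HepG2 had 373 and 349 CPM under the weight, against 156 and 149 CPM when uncompressed. The difference was -1.29 ± 0.07 (SE; edgeR adjusted p = 1.0e-09). The member that was higher in Hep3B was ITGA2, a collagen receptor subunit, at 0.83 ± 0.17. Of 23 extracellular proteases and inhibitors 14 were lower and 1 was higher. TIMP2, a metalloprotease inhibitor, had 92.3 and 89.1 CPM in Hep3B under the weight, against 81.4 and 83.3 CPM in uncompressed Hep3B. HepG2 had 108 and 112 CPM under the weight, against 34 and 36.2 CPM when uncompressed. The difference was -1.50 ± 0.08 (SE; edgeR adjusted p = 4.3e-10). CTSB, a lysosomal and secreted cathepsin, had 118 and 111 CPM in Hep3B under the weight, against 114 and 121 CPM in uncompressed Hep3B. HepG2 had 1179 and 1233 CPM under the weight, against 564 and 581 CPM when uncompressed. The difference was -1.11 ± 0.08 (SE; edgeR adjusted p = 7.0e-09). PLAU, the urokinase-type plasminogen activator, fell in Hep3B by 0.99 ± 0.20 and rose in HepG2 by 1.00 ± 0.22. Epithelial junction and keratin genes had 1 higher and 14 lower of 26, caveolar, membrane repair and mechanosensitive genes 1 and 12 of 23, and actin genes 2 and 15 of 37. CAVIN2, a coat protein of caveolae, the membrane pits that flatten under tension, had 75.4 and 68.6 CPM in Hep3B under the weight, against 101.1 and 100.3 CPM in uncompressed Hep3B. HepG2 had 147 and 135 CPM under the weight, against 53.9 and 49 CPM when uncompressed. The difference was -1.94 ± 0.09 (SE; edgeR adjusted p = 8.3e-11). The 14-library fit, which called 2.69% of all genes, called 8 TGF-beta, 2 BMP, 3 YAP and 3 matrix receptor and collagen genes. It also called 5 protease, 3 epithelial, 8 caveolar and 3 actin genes. IGFBP3, UCA1, NRP1, KRT19, MSN, TAGLN2, ANXA3, CD24, FSTL3, LTBP2, TGFBI, ITGA5, TIMP2 and CAVIN2 passed there, and COL18A1, CTSB, ID1, ID2 and ID3 did not.

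Coagulation, complement and acute phase genes that passed had the lower effect in Hep3B with 1 exception, and other serum proteins lay on both sides. Of 32 coagulation, complement and acute phase genes, 1 was higher in Hep3B and 15 were lower, with a median of -0.35 (-0.31 with the 1 gene that had a group at 0 set to its bound of 3 counts over the group). C3, the central complement component, had 2439 and 2606 CPM in Hep3B under the weight, against 2522 and 2729 CPM in uncompressed Hep3B. HepG2 had 10579 and 12056 CPM under the weight, against 4246 and 4378 CPM when uncompressed. It rose in HepG2 and its difference was -1.45 ± 0.09 (SE; edgeR adjusted p = 3.1e-08). C5 had 203 and 234 CPM in Hep3B under the weight, against 286 and 304 CPM in uncompressed Hep3B. HepG2 had 1100.2 and 1194 CPM under the weight, against 582 and 558 CPM when uncompressed. It moved in opposite directions in the 2 lines, and the difference was -1.44 ± 0.09 (SE; edgeR adjusted p = 1.3e-08). HP, the acute phase protein haptoglobin, had 1.19 and 0.886 CPM in Hep3B under the weight, against 2.71 and 3.02 CPM in uncompressed Hep3B. HepG2 had 141 and 163 CPM under the weight, against 65.8 and 63.2 CPM when uncompressed. The difference was -2.69 ± 0.22. The higher gene was C8G, a subunit of complement component 8, at 1.36 ± 0.35. Apolipoproteins and serum proteins had 9 higher and 7 lower of 27, and without either uncompressed Hep3B library 10 passed in all. APOM, a carrier of sphingosine-1-phosphate on HDL, had 15.4 and 15.8 CPM in Hep3B under the weight, against 12.4 and 11.5 CPM in uncompressed Hep3B. HepG2 had 119.6 and 134 CPM under the weight, against 252 and 257 CPM when uncompressed. The difference was 1.40 ± 0.10 (SE; edgeR adjusted p = 1.1e-08). SERPINC1, antithrombin, differed by 1.93 ± 0.31 and SERPINA3, antichymotrypsin, by -2.01 ± 0.48. ALB, albumin, had 26891 and 27133 CPM in Hep3B under the weight, against 27492 and 27210.2 CPM in uncompressed Hep3B. HepG2 had 33966 and 35262 CPM under the weight, against 42432 and 43093 CPM when uncompressed. The difference was 0.29 ± 0.05 (SE; edgeR adjusted p = 2.7e-04).

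Of 30 lysosome and autophagy genes, 1 was higher in Hep3B and 12 were lower, with a median of -0.17. In HepG2 15 of them rose and 4 fell, and in Hep3B 1 rose and 4 fell. LAMP2, a protein of the lysosomal membrane, had 234 and 216 CPM in Hep3B under the weight, against 231 and 234 CPM in uncompressed Hep3B. HepG2 had 430.1 and 430.4 CPM under the weight, against 295 and 285 CPM when uncompressed. The Hep3B groups overlapped, and the difference was -0.62 ± 0.07 (SE; edgeR adjusted p = 5.4e-06). The member on the higher side was WIPI1, which binds lipids of the forming autophagosome, with 16.1 and 15.7 CPM in Hep3B under the weight, against 11.8 and 11.6 CPM in uncompressed Hep3B. HepG2 had 44.2 and 39.6 CPM under the weight, against 70.2 and 64.8 CPM when uncompressed. The difference was 1.13 ± 0.11 (SE; edgeR adjusted p = 7.3e-07). Of 20 heat shock chaperones 1 was higher and 6 were lower, a called share of 35% against 25.9% over all genes. DNAJB1, a partner of the Hsp70 chaperones, had 168 and 156 CPM in Hep3B under the weight, against 175 and 177 CPM in uncompressed Hep3B. HepG2 had 164 and 164 CPM under the weight, against 113 and 109 CPM when uncompressed. The difference was -0.69 ± 0.07 (SE; edgeR adjusted p = 1.9e-06). The count of 7 chaperones was 11 without the second Hep3B library under the weight and 4 without the first uncompressed HepG2 library. The 14-library fit called 1 gene of each of these lists, WIPI1 and the small heat shock protein HSPB8, against 2.69% of all genes.

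None of the 48 cytosolic ribosomal protein genes passed, with a median difference of 0.00. At an unadjusted p under 0.05 there were 3, and the count was 0 with DESeq2 and at most 4 under any alternative tried. None of the 13 mitochondrially encoded mRNAs passed, at a median of -0.53, nor did any with DESeq2 or at an unadjusted p under 0.05. Their share of counts differed between replicates of every group as given above. Of 40 nuclear oxidative phosphorylation genes 8 were higher and 0 lower, at a median of 0.09, a called share of 20%. This count rests on single libraries. It was 1 without the second uncompressed Hep3B library, 4 without the first uncompressed Hep3B library or the first Hep3B library under the weight, 3 without either uncompressed HepG2 library and 12 without the second Hep3B library under the weight, and DESeq2 called 3. The 32 pro-apoptotic genes had 8 higher and 5 lower and the 16 anti-apoptotic genes 4 and 1, shares of 40.6% and 31.2% called against 25.9% over all genes. Of 30 p53 targets 2 were higher and 6 lower, a called share of 26.7%, close to the 25.9% over all genes. GDF15, also counted among the BMP and ID genes, was 1 of the 2 higher and had the highest difference of the list, 1.27. PLK2, a kinase induced by p53 and by other signals, had 8.68 and 8.54 CPM in Hep3B under the weight, against 14.6 and 15.9 CPM in uncompressed Hep3B. HepG2 had 16.7 and 16.7 CPM under the weight, against 8.62 and 8.58 CPM when uncompressed. The difference was -1.79 ± 0.14 (SE; edgeR adjusted p = 4.6e-08). RRM2B, the p53-induced ribonucleotide reductase subunit, had 48.7 and 47.2 CPM in Hep3B under the weight, against 51.3 and 50.7 CPM in uncompressed Hep3B. HepG2 had 113 and 113 CPM under the weight, against 71.4 and 69.5 CPM when uncompressed. The difference was -0.77 ± 0.08 (SE; edgeR adjusted p = 9.5e-07). MDM2, BAX and CCNG1, also p53 targets, differed by 0.05, -0.01 and -0.11, and none of them passed. The 14-library fit called 4 coagulation and complement, 3 serum protein, 0 nuclear oxidative phosphorylation, 2 pro-apoptotic, 1 anti-apoptotic and 1 p53 target genes. Its share over all genes was 2.69%.

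Markers of cells that neither line should hold were mostly low, apart from LYZ, COL1A1, TIE1 and PECAM1 in HepG2, LUM and PDGFRA in Hep3B, and PDGFRB in both. The 8 endothelial markers summed to 1.65 and 1.61 CPM in Hep3B under the weight, against 0.695 and 0.659 CPM in uncompressed Hep3B, and to 18.1 and 18.7 CPM in HepG2 under the weight, against 7.83 and 7.76 CPM in uncompressed HepG2. TIE1, CDH5, VWF and PECAM1 rose in HepG2. TIE1 had at most 0.0403 CPM in any Hep3B library, with 6.04 and 6.67 CPM in HepG2 under the weight, against 0.924 and 0.739 CPM in uncompressed HepG2. The endothelial markers KDR, TEK, EMCN and CLDN5 were at or below 0.213 CPM in all 8 libraries, and none of the 4 tested endothelial genes passed for the difference, nor did any with DESeq2 or at an unadjusted p under 0.05. The 8 fibroblast markers summed to 56.2 and 50.9 CPM in Hep3B under the weight, against 50.4 and 52.8 CPM in uncompressed Hep3B, and to 22.5 and 24 CPM in HepG2 under the weight, against 28.8 and 27.3 CPM in uncompressed HepG2. Of the 5 tested, PDGFRB passed. LUM, a matrix proteoglycan, had 12.3 and 9.98 CPM in Hep3B under the weight, against 6.36 and 8.67 CPM in uncompressed Hep3B. HepG2 had 0.0425 and 0 CPM under the weight, against 0.0880 and 0 CPM when uncompressed. COL1A1, a collagen chain, had 0.576 and 0.926 CPM in Hep3B under the weight, against 0.278 and 0.243 CPM in uncompressed Hep3B. HepG2 had 11.5 and 10.3 CPM under the weight, against 1.98 and 1.56 CPM when uncompressed. Neither passed for the difference, and DCN and THY1 were at or below 0.192 CPM throughout. The 8 leukocyte markers summed to 16.9 and 13.7 CPM in Hep3B under the weight, against 17 and 17.1 CPM in uncompressed Hep3B, and to 2786 and 2699 CPM in HepG2 under the weight, against 4779 and 4894 CPM in uncompressed HepG2, nearly all of it LYZ. Of 4 tested leukocyte genes, LYZ passed as higher (0.77 ± 0.10) and CD14 as lower (-1.53 ± 0.45). CD14 did not pass without the second Hep3B library under the weight, the first uncompressed Hep3B, the second HepG2 under the weight or the first uncompressed HepG2 library (edgeR adjusted p = 0.051, 0.056, 0.15 and 0.096). CD3E was at 0 in all 8 libraries. The part of such genes in the results was not tested.

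**Figure D5:**
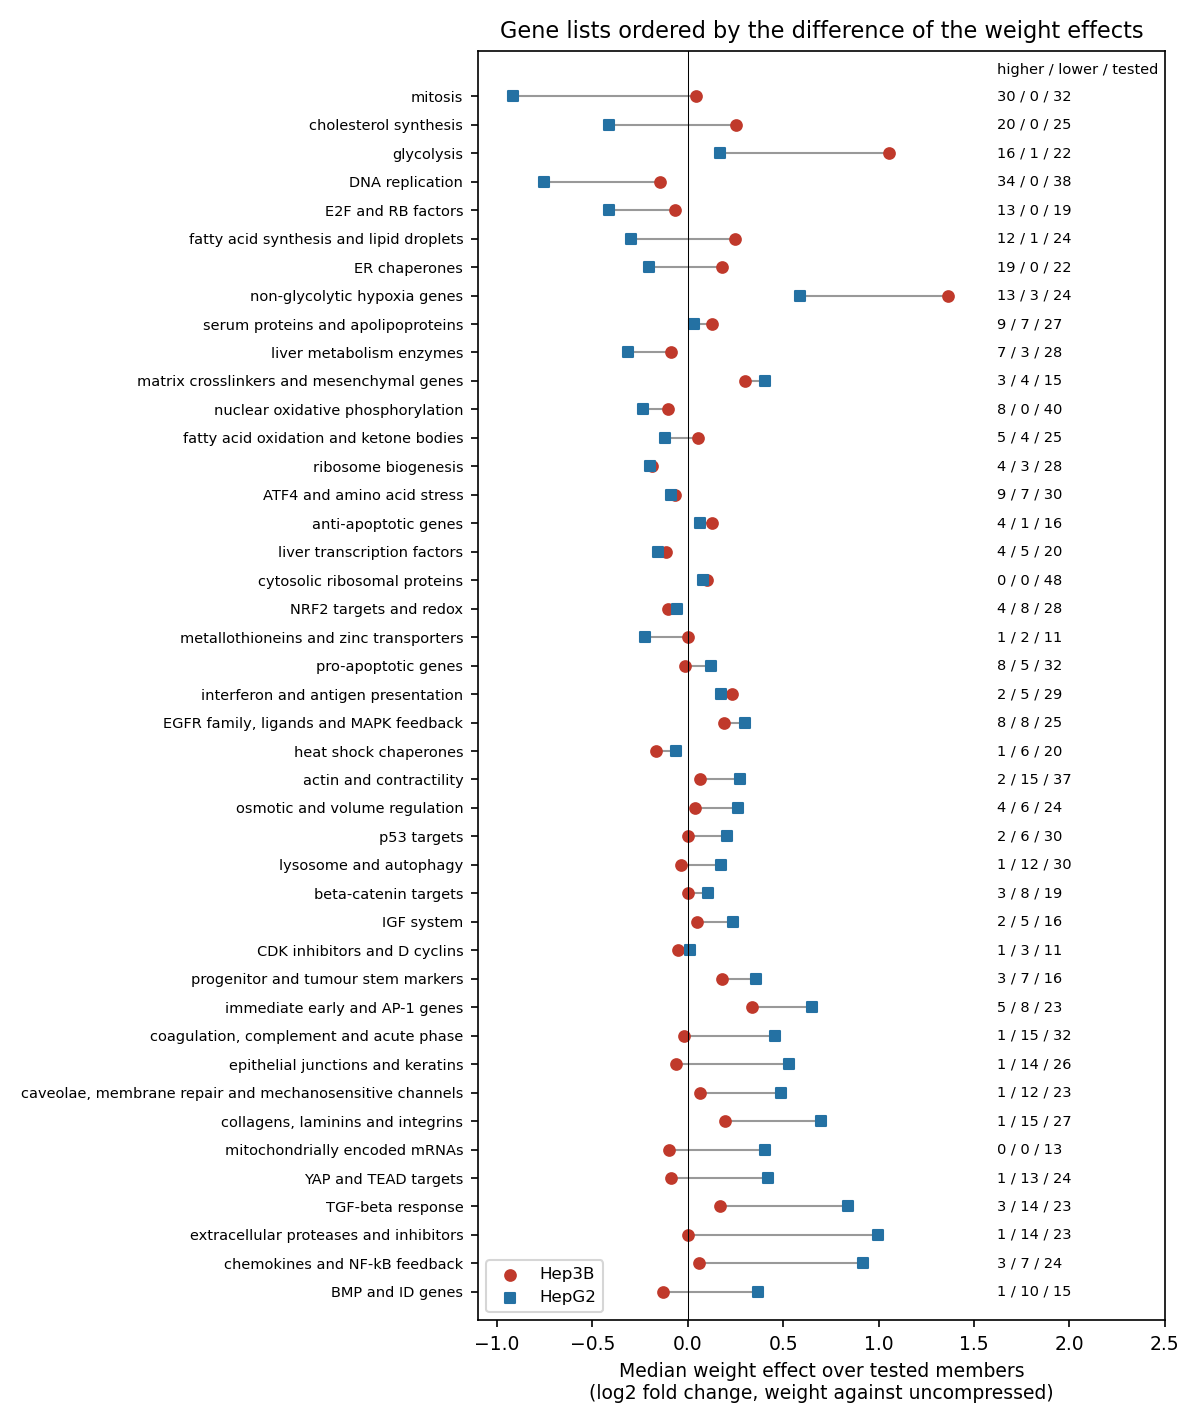
Gene lists other than the endothelial, fibroblast and leukocyte markers are ordered from the highest (top) to the lowest median difference, with the median weight effect of the tested members in Hep3B (red circles) and HepG2 (blue squares) on the log2 scale and, at the right, the members with a higher effect in Hep3B, with a lower one, and tested. Mitosis, cholesterol synthesis and glycolysis stand at the top with 30 of 32, 20 of 25 and 16 of 22 members higher, and the BMP, protease and TGF-beta lists near the bottom with 10 of 15, 14 of 23 and 14 of 23 members lower. The place of the chemokine list rests on genes with a group at 0, and its median of -0.58 was -0.39 with these set to their bound of 3 counts over the group.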

How the data were processed

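RNA of HepG2 and Hep3B cells was extracted (RNeasy mini kit) and sequenced in 100-base read pairs (HiSeq or NovaSeq), per the labels' protocols. The submitters' processing notes name STAR, DESeq2, GRCh38 and hg38 without roles or versions, and no source used here gives the counting step. The values deposited by the authors are raw whole-number counts of each gene in each library. In the 8 libraries, unnamed entries took 0.229% to 0.282% of counts and stayed in the fit as genes with an ID. The libraries labelled Hep3B control were taken as uncompressed Hep3B.

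Counts of the 8 libraries were fitted in edgeR 4.0.16 (R 4.3.3) with TMM scaling, 1 mean per group, robust quasi-likelihood estimation and 4 residual degrees of freedom. Genes needed 1 CPM in 2 libraries. The difference of effects is (Hep3B weight minus Hep3B uncompressed) minus (HepG2 weight minus HepG2 uncompressed), with Benjamini-Hochberg adjustment over 15114 genes and a threshold of 0.05. CPM are relative to the TMM-scaled library size. Coordinates come from GENCODE 29 and promoter windows from RefSeq.

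Named genes came from the 12 largest differences a side (mean of at least 5 CPM), the 3 called members of lowest p in each of 46 lists, the 8 largest opposite movements in each orientation, the 4 largest same-direction differences a side, the 5 lowest p, and RB1, AFP, ALB and 2 p53 targets. Further list members were named after their values were seen. A few genes that this choice or the lists would name are not reported here. The members and lists were chosen with earlier results of these data known. Alternatives were RLE and total-count scaling, 2 other filters, DESeq2 1.42.0, all 14 libraries, a replicate block, a minimum difference and leaving out each library.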

Additional observations from a re-analysis of the deposited data

Results flagged for a closer look

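The difference between the lines was itself the tested quantity, and 1949 genes with a higher and 1967 with a lower weight effect in Hep3B were flagged for it. Within these, 170 genes rose in Hep3B and fell in HepG2, and 222 fell in Hep3B and rose in HepG2, by the same edgeR quasi-likelihood test. In libraries outside the comparison, Hep3B on transwells in 3% PEG, IGFBP1 averaged 50.9 CPM, above its level in uncompressed Hep3B. CA9 and EPO, which also rose in Hep3B under the weight, had 0.202 and 0.283 CPM and 0 and 0.283 CPM in the 2 PEG libraries, no higher than in uncompressed Hep3B. DDIT4, raised by the weight as well, had 65.6 and 63.4 CPM in PEG. On the same scaling over 14 libraries it had 15.2 and 14.4 CPM in uncompressed Hep3B. Genes raised by the weight in Hep3B therefore did not share 1 direction in PEG.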

How the results depend on the processing

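No call reversed under any alternative tried. The count of 3916 (1949 higher, 1967 lower) was 407 (176 and 231) with the spread drawn from all 14 libraries, where the dish replicates differed more, and 174 (47 and 127) when a log2 difference above 1 was required, which asks for more by construction. Leaving out 1 library gave 2939 to 3958 genes, 1453 to 2084 of them higher and 1363 to 1880 lower. RLE and total-count scaling, no filter, a filter in each line and DESeq2 gave 2860 to 3991. With the replicate number as a block 4169 genes passed, 3883 of them among the 3916; replicate differences of the groups correlated at -0.061 to 0.244, above 0.1 in 4 of 6 pairs of groups, and since the labels tie no replicates together the samples were not treated as paired. Of the 152 named genes that passed, 78 did not pass in the 14-library fit, and 1 library decided the call of AFP, CA9, COX4I2 and CD14, as given beside them, and of CYCS, NCL, ATP5F1A, SLC30A10, LYPD1, CACNA2D4, CYP24A1, MAMLD1 and FLNC, whose values are not described. Single list members named outside the rule were not followed through the alternatives. With 2 libraries a group and 4 residual degrees of freedom, small differences and genes with few counts in 1 line are measured with little precision.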
